A study of Mus musculus with 12 samples.

Results

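The genes described here are 40 mouse genes of the integrated stress response and the unfolded protein response, out of 55335 gene identifiers counted in 12 RNA-seq libraries. They were taken from a list, by symbol, and all 40 were found in the count tables. The list has an ATF4 amino acid arm of 23 genes and an endoplasmic reticulum (ER) chaperone arm of 17 genes, which are described apart. The libraries came from CT26, a mouse colorectal carcinoma line of wild-type genotype, grown either as subcutaneous tumors or in culture, with 3 libraries in each of 4 groups. Midostaurin tumors were dosed at 40 mg/kg beginning 7 days after inoculation, for 2 weeks, and vehicle tumors are their controls. Midostaurin cells had 1 µM of the drug for 48 h, and DMSO cells are their controls. Midostaurin is a multikinase inhibitor. All groups share this 1 line, the tumors also hold host cells, and the strain and age of the mice are not given in the sources used here. The labels give each cell library a number from 1 to 3 in both treatments, and the values below are also compared between the cell libraries numbered 1 and those numbered 2 and 3.

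Shortage of amino acids, misfolded protein in the ER, haem shortage and viral RNA each activate a kinase that phosphorylates the initiation factor eIF2α. General translation then falls while translation of the transcription factor ATF4 rises, and ATF4 drives genes for amino acid synthesis, amino acid uptake and stress feedback. Misfolded protein in the ER also activates the sensors ATF6 and IRE1, of which IRE1 splices Xbp1 mRNA, and both raise ER chaperones, disulfide isomerases and the degradation machinery. A cell short of amino acids can therefore raise the first arm without the second. Counts per gene do not separate spliced from unspliced Xbp1 mRNA, nor do they measure protein.

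Short promoter motifs are known for both arms. A promoter from 250 bases before to 50 bases after the RefSeq start (GRCm38.p6) was at hand for 37 of the 40 genes, all but Slc7a5, Hyou1 and Manf. In the arms a gene was counted if any of its promoters held the motif, while the shares of all are per promoter, so these units are unlike. The C/EBP-ATF response element was searched as TGATGNAA on both strands. It was found for 8 of 22 genes of the ATF4 arm (Asns, Atf3, Chac1, Nupr1, Pycr1, Slc7a11, Trib3 and Vldlr). It was also found for 1 of 15 genes of the ER chaperone arm (Herpud1) and in 3.97% of 32851 RefSeq promoters. The ER stress response element was searched as CCAAT and CCACG with 9 free bases between them on both strands. It was found for 7 of 15 genes of the ER chaperone arm (Hspa5, Hsp90b1, Calr, Canx, Creld2, Dnajc3 and Pdia6). For the ATF4 arm it was found for 0 of 22 genes, and it was in 0.119% of all promoters. A shorter variant, ATTGG and CCACG with 1 free base between them, was in the Herpud1 promoter and in 0.0365% of all promoters. The XBP1 element TGACGTGG was in no promoter of the 37 genes and in 0.676% of all promoters. These are matches of letters and are not measured binding sites, and the motifs searched did not overlap each other in any promoter listed. The stretches below are shown because the first 4 genes and Herpud1 are among those that differed between cell libraries of different number by at least 1.5-fold, a size that Hspa5 and Hsp90b1 did not reach. Capitals mark the fixed letters of the motif, in either orientation, and each stretch is written 5′ to 3′ on the strand of its gene. They come from chr2:119351024-119351081 on the plus strand (Chac1), chr7:126625562-126625591 on the minus strand (Nupr1), chr11:120643819-120643876 on the minus strand (Pycr1), chr6:7693214-7693243 on the minus strand (Asns), chr8:94386292-94386412 on the plus strand (Herpud1), chr2:34772020-34772048 on the plus strand (Hspa5) and chr10:86705510-86705681 on the minus strand (Hsp90b1). The Nupr1, Asns and Hspa5 stretches lie within exons of the GENCODE annotation, and the others lie outside them.
Chac1: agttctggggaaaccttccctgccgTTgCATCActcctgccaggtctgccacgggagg
Nupr1: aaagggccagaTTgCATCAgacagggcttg
Pycr1: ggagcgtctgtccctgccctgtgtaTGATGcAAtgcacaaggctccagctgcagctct
Asns: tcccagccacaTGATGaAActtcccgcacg
Herpud1: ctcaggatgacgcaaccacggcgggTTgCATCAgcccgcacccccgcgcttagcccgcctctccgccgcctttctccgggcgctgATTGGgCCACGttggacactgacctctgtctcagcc
Hspa5: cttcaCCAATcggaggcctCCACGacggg
Hsp90b1: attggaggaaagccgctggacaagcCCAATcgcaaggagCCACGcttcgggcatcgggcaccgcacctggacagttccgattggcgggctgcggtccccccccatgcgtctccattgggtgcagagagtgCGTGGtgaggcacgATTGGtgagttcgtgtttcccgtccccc

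Tumor libraries held 33399701 to 48109497 counts and cell libraries 34787389 to 38144039. Levels are CPM, the count per 1000000 counts of the library after TMM scaling of all 12 libraries together, and differences between log levels use log2(CPM + 0.5). Nothing in the labels says whether the 3 libraries of a group came from separate animals or cultures, so p-values measure the spread between these libraries, which may be technical. Of 8 carcinoma and epithelial markers, 6 were under 1 CPM in every DMSO cell library, so these markers were low against the label of a colorectal cancer line. Midostaurin tumors are given in the order of their columns, which are numbered 2, 3 and 4. Macrophage markers summed to 622 to 1411 CPM in midostaurin tumors and 1401 to 2432 CPM in vehicle tumors, against 5.64 to 25.9 CPM in the cells. Tumor RNA therefore mixes cancer and host cells, and fewer cells of a type cannot be told apart from less RNA per cell.

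In culture, the ATF4 arm separated the libraries numbered 1 from those numbered 2 and 3, in midostaurin and in DMSO cells alike, while the ER chaperone arm differed less. Of the 22 ATF4 arm genes that passed the filter on low counts, 21 were higher in the libraries numbered 1, meaning that both of them lay above the other 4 with at least 1.5-fold between the means. The remaining gene, Cebpb, was lower. Among all 14538 genes, 11.0% were higher and 10.3% lower by the same criterion. In the ER chaperone arm 1 of 17 genes was higher (Herpud1) and 0 were lower by that criterion. With no minimum fold, 3 of the 17 were higher and 10 lower without overlap, where 4815 of all 14538 genes were higher and 4650 lower. The median log2 difference was 2.02 for the ATF4 arm, -0.13 for the ER chaperone arm and 0.00 for all genes. The split follows the numbers in the labels. It is a description with no test, because same-numbered libraries of both treatments may share a source.

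**Figure D1:**
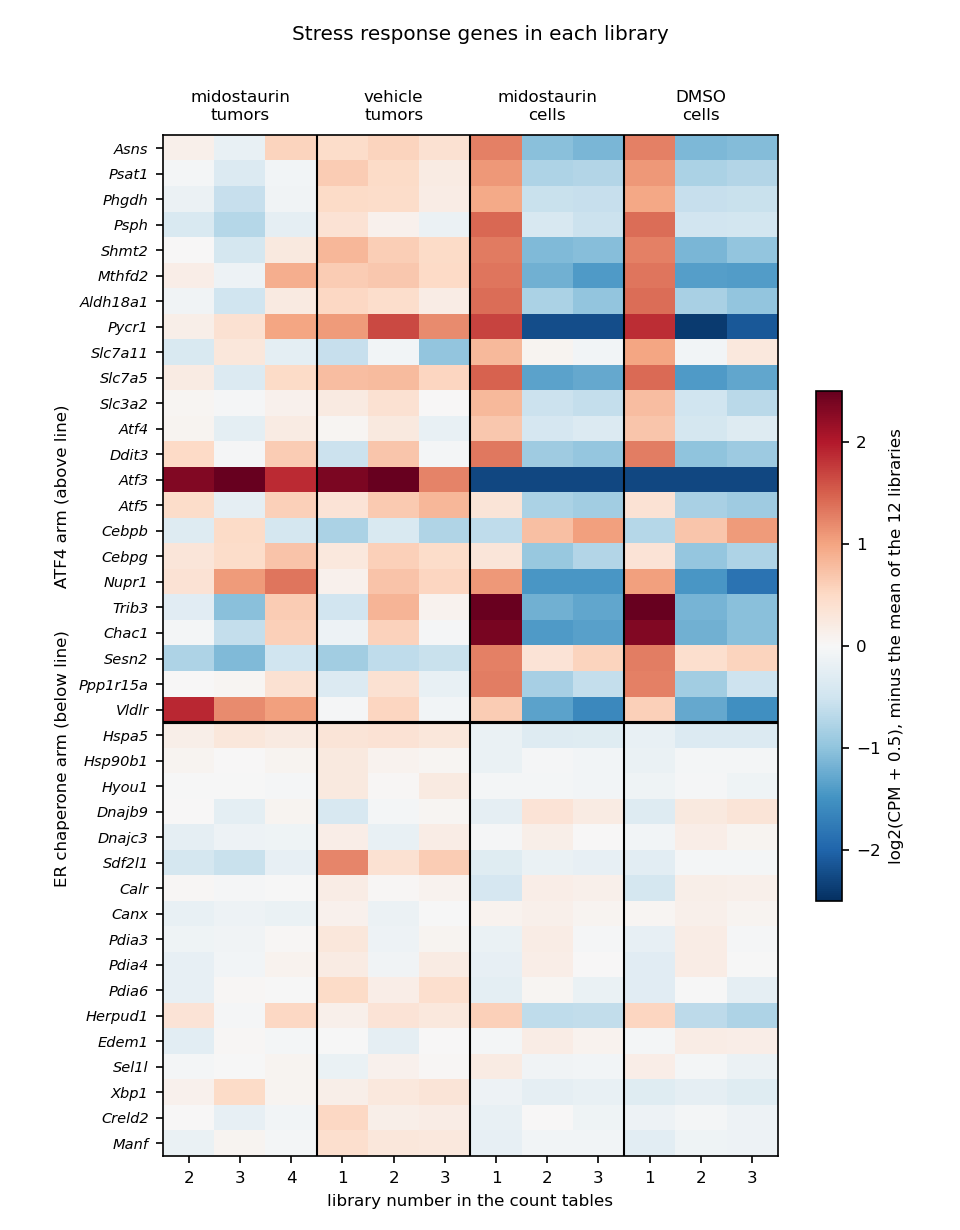
Each row is a gene and each column a library. Color is log2(CPM + 0.5) minus the mean of the gene over the 12 libraries, shown up to 2.5 in either direction. The cell libraries numbered 1 are red for most of the ATF4 arm and the other 4 cell libraries blue, with Cebpb the other way round, while the ER chaperone arm is pale throughout except for Sdf2l1 in vehicle tumors and Herpud1.

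The per-library mean of log2 CPM over the ATF4 arm was 7.51 in each of the libraries numbered 1, against 5.65 in both other midostaurin libraries and 5.63 and 5.69 in the other DMSO libraries. The same mean over the ER chaperone arm was 7.35 and 7.31 in the midostaurin and DMSO libraries numbered 1, against 7.36 to 7.43 in the other 4. The libraries numbered 1 were thus closer to each other in the ATF4 arm than to the other libraries of their own treatment.

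All 8 genes of amino acid and one-carbon synthesis were higher in the libraries numbered 1, with a median log2 difference of 2.32. Asns (ENSMUSG00000029752, mm10 chr6:7675169-7693254, minus strand) makes asparagine from aspartate. It measured 676 and 679.7 CPM in the midostaurin and DMSO libraries numbered 1, against 136 and 129 CPM in the other midostaurin libraries and 131 and 134 CPM in the other DMSO libraries, a 5.10-fold difference. Mthfd2, a mitochondrial enzyme of folate metabolism, measured 286 CPM in each of the libraries numbered 1, against 48.9 and 42.1 CPM in the other midostaurin libraries and 43.2 and 42.7 CPM in the other DMSO libraries (6.42-fold higher). The groups did not overlap for either gene, and the values of the 4 libraries numbered 2 and 3 lay close together. Pycr1, which completes proline synthesis, differed most, at 14.7 and 16.5 CPM in the libraries numbered 1, against 0.519 and 0.525 CPM in the other midostaurin libraries and 0.408 and 0.598 CPM in the other DMSO libraries. That is 16.0-fold on the log2(CPM + 0.5) scale, which understates the change of so low a gene. Aldh18a1, which catalyses an earlier step of proline synthesis, was 4.87-fold higher. The serine synthesis enzymes Phgdh, Psat1 and Psph, which act in that order, were 2.88-fold, 3.59-fold and 3.67-fold higher, and Shmt2, which converts serine to glycine in mitochondria, was 5.10-fold higher. The exons of Psph and Shmt2 overlap genes on the other strand, and the strand setting of the counting is not given in the sources used here.

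All 3 genes of amino acid transport were higher in the libraries numbered 1. Slc7a5, the light chain of the large neutral amino acid exchanger LAT1, measured 557 and 538 CPM in the midostaurin and DMSO libraries numbered 1, against 79.7 and 82.0 CPM in the other midostaurin libraries and 75.4 and 81.5 CPM in the other DMSO libraries (6.84-fold higher). Slc3a2, the heavy chain that pairs with Slc7a5 and with Slc7a11, was 2.59-fold higher. Slc7a11, the cystine importer of system xc-, was only 1.80-fold higher, at 35.4 and 39.7 CPM against 20.8, 18.9, 19.0 and 23.9 CPM in the libraries numbered 2 and 3. Slc7a5 and its partner were thus both high in the libraries numbered 1, by unequal factors.

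Of the 7 transcription factors, 5 were higher in the libraries numbered 1, Cebpb was lower and Atf3 was listed at 0 counts in all 6 cell libraries. Atf4 mRNA itself measured 831 and 846 CPM in the midostaurin and DMSO libraries numbered 1, against 390.1 and 410.0 CPM in the other midostaurin libraries and 383 and 416 CPM in the other DMSO libraries, a 2.10-fold difference that was smaller than that of most of its targets. Ddit3, which encodes the stress factor CHOP, measured 172 and 167 CPM, against 36.9, 35.0, 34.0 and 36.6 CPM in the libraries numbered 2 and 3 (4.72-fold higher). Nupr1, a small stress-induced chromatin protein, was 6.10-fold higher, and Atf5 and Cebpg, a target and a dimer partner of ATF4, were each 2.27-fold higher. Cebpb, a C/EBP factor with roles in inflammation as well as in this response, went the opposite way, with 178 and 169 CPM in the libraries numbered 1, against 464 and 565 CPM in the other midostaurin libraries and 449 and 575 CPM in the other DMSO libraries (2.93-fold lower). The exons of Ddit3 and Cebpg overlap genes on both strands, and those of Atf5 and Cebpb on the other strand only. For Ddit3 the same-strand overlap is with another identifier of the same name. On its other strand lies Mars, which was itself 2.40-fold higher in the libraries numbered 1. The part of these overlaps in the values was not tested.

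All 5 genes of feedback and stress effects were higher in the libraries numbered 1. Trib3 (ENSMUSG00000032715, mm10 chr2:152337422-152344032, minus strand), a pseudokinase that binds ATF4 and limits its output, measured 297 and 300.3 CPM in the midostaurin and DMSO libraries numbered 1, against 22.7 and 21.1 CPM in the other midostaurin libraries and 23.4 and 25.4 CPM in the other DMSO libraries (12.7-fold higher). Chac1, which degrades glutathione, measured 104 and 101 CPM, against 7.11 and 7.38 CPM in the other midostaurin libraries and 8.29 and 9.31 CPM in the other DMSO libraries (12.2-fold higher). These were the largest differences of the arm after Pycr1. Ppp1r15a, the GADD34 subunit that directs a phosphatase to eIF2α, was 3.92-fold higher, and Vldlr, a lipoprotein receptor, 4.17-fold. Sesn2, a leucine sensor that restrains mTORC1, was nearest to the limit among the genes counted, at 1.74-fold, with 132 and 134 CPM against 69.5, 80.7, 73.5 and 80.4 CPM.

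**Figure D2:**
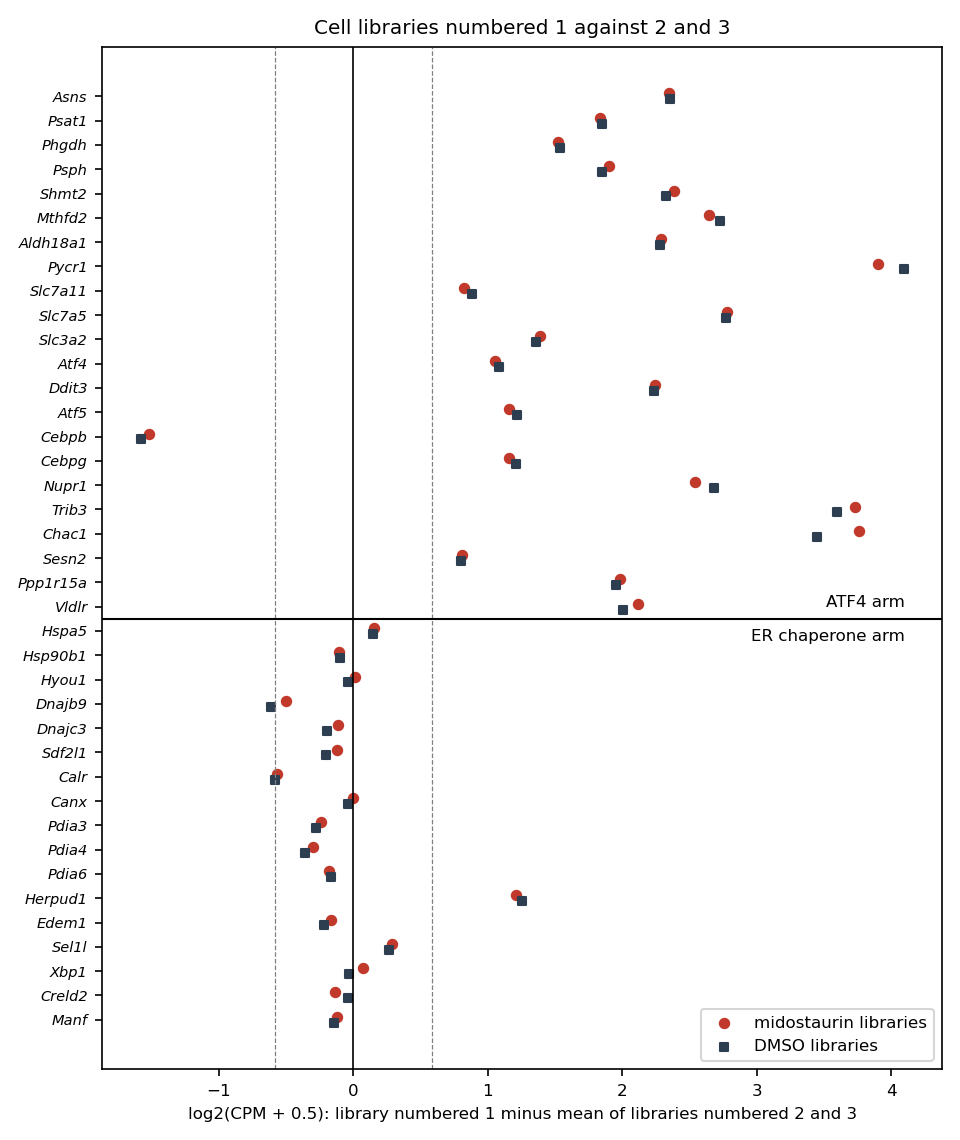
Each point is the log2(CPM + 0.5) of the cell library numbered 1 minus the mean of the libraries numbered 2 and 3 of the same treatment, with midostaurin cells in red and DMSO cells in dark blue. Dashed lines mark 1.5-fold. Atf3, at 0 in all cells, is not drawn. The points of both treatments nearly coincide, at 3.73 and 3.60 for Trib3 and at 0.15 for Hspa5 in each.

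In the ER chaperone arm the libraries numbered 1 were close to the others. Hspa5 (ENSMUSG00000026864, mm10 chr2:34771970-34777547, plus strand), the master chaperone BiP, measured 837 and 819.5 CPM in the midostaurin and DMSO libraries numbered 1, against 749.9 and 753 CPM in the other midostaurin libraries and 742 and 739 CPM in the other DMSO libraries, a 1.11-fold difference. Hsp90b1, the ER paralog of HSP90, had 1038 CPM in each of the libraries numbered 1, against 1107 to 1134 CPM in the others. Xbp1 measured 84.6 and 75.5 CPM, against 79.4, 81.8, 79.1 and 75.5 CPM, so the libraries overlapped. Calr, a lectin chaperone of glycoproteins, was just under the limit, 1.49-fold lower at 704 and 688 CPM, against 1056, 1031, 1038 and 1023 CPM. The same held for Dnajb9, an HSP40-type cochaperone of BiP, which was 1.47-fold lower. Pdia4, a disulfide isomerase, was 1.26-fold lower, and Sel1l, an adaptor of ER-associated degradation, 1.21-fold higher. The exception was Herpud1 (ENSMUSG00000031770, mm10 chr8:94386438-94395377, plus strand), a scaffold of ER-associated degradation. It measured 133 and 129 CPM in the libraries numbered 1, against 57.0 and 57.8 CPM in the other midostaurin libraries and 55.8 and 51.6 CPM in the other DMSO libraries (2.35-fold higher). Its promoter stretch above holds TGATGNAA and the shorter variant, but not the ER stress response element with 9 free bases. The part of these motifs in its level was not tested.

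**Figure D3:**
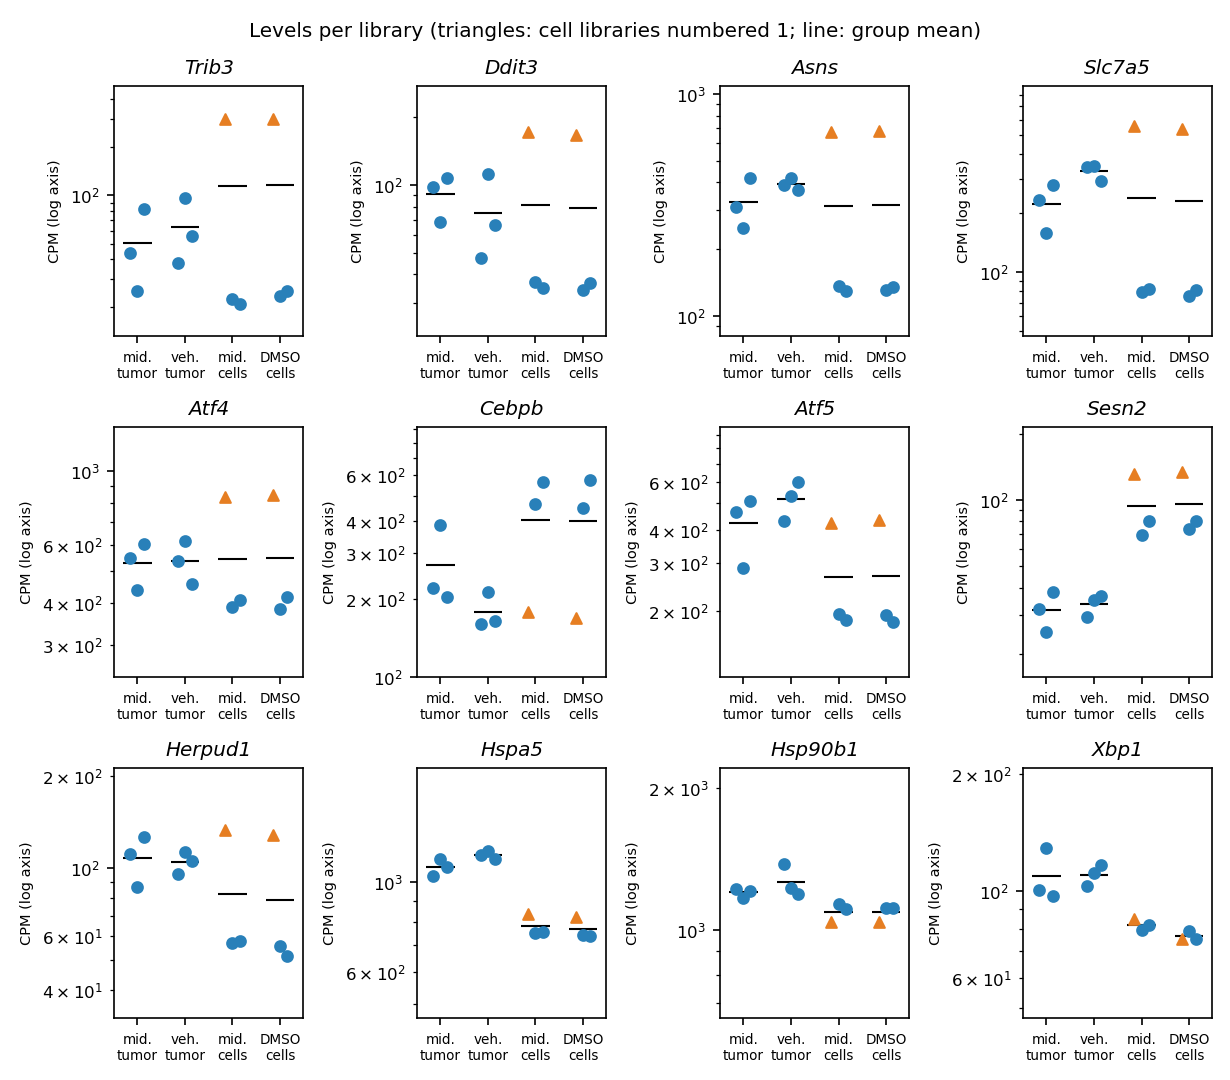
Levels of 12 genes in CPM on log axes, with a panel for each gene and a dot or triangle for each library. Triangles are the cell libraries numbered 1 and horizontal lines the group means. For Trib3, Ddit3, Asns, Slc7a5, Atf4 and Herpud1 the triangles stand above the other cell libraries, for Cebpb below them, and for Hspa5 and Xbp1 near them.

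Within the ATF4 arm, the 7 tested genes with TGATGNAA in the promoter window had a median log2 difference of 2.61 (0.85 to 4.00), and the 14 without it 1.69 (-1.55 to 2.68). In the ER chaperone arm the 7 genes with the ER stress response element had a median of -0.11 and the 8 without it -0.18. The ranges overlapped in both arms.

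Other genes of these pathways were counted on 7 further lists by the same 1.5-fold criterion, by which 11.0% of all genes were higher and 10.3% lower. Of 17 cytosolic tRNA synthetases, many of them known ATF4 targets, 14 were higher in the libraries numbered 1 and 0 lower, with a median log2 difference of 1.27. Of 18 further ATF4 targets tested, 14 were higher and 2 lower, with a median of 2.07. Aldh1l2, a mitochondrial folate enzyme, differed by 3.30 and Slc1a4, a neutral amino acid transporter, by 2.79, both named after their values were seen. Of 31 other genes of the unfolded protein response, 2 were higher (Ero1l and Wfs1) and 1 lower (Ero1lb), with a median of 0.00. Sensors and regulators of the 2 responses gave 4 higher and 3 lower of 18. Cytosolic heat shock genes gave 0 higher and 5 lower of 9, the mitochondrial unfolded protein response 3 higher and 0 lower of 8, and NRF2 targets 0 higher and 3 lower of 10. Other values differed between the same libraries. The summed CPM of 8 fibroblast markers was 1602 and 1584 in the midostaurin and DMSO libraries numbered 1, against 842 to 1040.2 in the others, with 2 of the 8 under 1 CPM in all cells. The sum of Malat1, Neat1 and 4 mitochondrial mRNAs was 28262 and 28079 CPM, against 37037 to 38935 CPM. The part of these in the split was not tested.

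Tumors lay between the kinds of cell libraries in much of the ATF4 arm. For 12 of the 22 tested genes, all 6 tumor libraries fell between the cell libraries numbered 1 and those numbered 2 and 3, against 2.85% of all 14538 genes. Only a gene whose cell libraries do not overlap by number can count here. With no minimum fold, as in this count, 21 of the 22 were higher and 1 lower without overlap. Of all 14538 genes 4815 were higher and 4650 lower in that way. The 2.85% is therefore not a like base, and the excess partly restates the split. The 12 genes were Asns, Psat1, Shmt2, Mthfd2, Aldh18a1, Pycr1, Slc7a5, Slc3a2, Atf4, Ddit3, Chac1 and Ppp1r15a. In the ER chaperone arm the count was 1 of 17 (Herpud1). The per-library mean of log2 CPM over the ATF4 arm was 6.55 to 6.97 in midostaurin tumors and 6.71 to 7.12 in vehicle tumors, below the 7.51 of the cell libraries numbered 1 and above the 5.63 to 5.69 of the others.

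Vehicle tumors were compared with DMSO cells. Growth in the mouse or in culture, the presence of host cells and deposition as separate sets of counts go together in this comparison. They cannot be told apart, in either arm. With all libraries, 1 ATF4 arm gene rose in tumors (Atf3) and 1 fell (Sesn2), where 22.2% of 15899 genes rose and 18.1% fell (edgeR quasi-likelihood test, Benjamini-Hochberg adjusted p under 0.05). Atf3, an early-response repressor, measured 11.9, 18.7 and 5.21 CPM in vehicle tumors, against 0 counts in each DMSO library. With the DMSO libraries set at a floor of 3 counts each, this is at least 148-fold higher. Atf3 passed the low-count filter only through the tumors, so its call adds nothing to these levels and no p-value is given. Sesn2 measured 29.5, 35.1 and 36.8 CPM in vehicle tumors, against 134, 73.5 and 80.4 CPM in DMSO cells, a log2 fold change of -1.51 ± 0.24 (SE, edgeR adjusted p = 0.0036). Every vehicle tumor was below every DMSO library for this gene. The other 21 members of the arm did not pass, with log2 fold changes of -1.17 (Cebpb) to 0.95 (Pycr1), and the median of the arm was 0.24, against 0.03 for all genes. Setting Atf3 at its bound leaves that median as it is.

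That result depended on the DMSO library numbered 1, which lies above the others for 21 of the 22 genes of this arm tested in cells. Without it, 19 ATF4 arm genes rose in vehicle tumors and 2 fell, where 30.8% of 16631 genes rose and 22.3% fell. The 19 include Atf3, which passed the filter only through the tumors. The median of the arm was then 1.33. It was -0.02 without DMSO library 2 and -0.01 without library 3. Without library 1 Asns rose by a log2 fold change of 1.57 ± 0.10 (SE, edgeR adjusted p = 0.00012), against 0.31 ± 0.63 with it, with 389, 419.6 and 368 CPM in vehicle tumors, against 131 and 134 CPM in DMSO libraries 2 and 3. Mthfd2 rose by 2.01 ± 0.09 and Slc7a5 by 2.07 ± 0.11 (edgeR adjusted p = 6.5e-05 and 9.8e-05). Trib3 measured 37.8, 96.4 and 56.0 CPM in vehicle tumors, against 23.4 and 25.4 CPM in those DMSO libraries and 300.3 CPM in DMSO library 1. Its log2 fold change was 1.38 ± 0.38 (edgeR adjusted p = 0.0227) without library 1 and -0.88 ± 1.00 (edgeR adjusted p = 0.51) with it. Ddit3 changed likewise, with 1.09 ± 0.35 (edgeR adjusted p = 0.037) without library 1 and -0.09 ± 0.66 (edgeR adjusted p = 0.929) with it. Atf4 measured 534, 615 and 455 CPM in vehicle tumors, against 846, 383 and 416 CPM in DMSO cells, and its log2 fold change was 0.42 ± 0.14 (edgeR adjusted p = 0.0423) without library 1 and -0.04 ± 0.31 with it. Cebpb was lower without library 1, at -1.52 ± 0.17 (edgeR adjusted p = 0.00069), and so was Sesn2. The genes outside the call were Slc7a11 and Ppp1r15a. DESeq2 called 6 genes of the ATF4 arm and 7 of the ER chaperone arm with all libraries, where it called 45.2% of 15862 genes.

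In the ER chaperone arm, 6 of 17 genes were higher in vehicle tumors than in DMSO cells and 0 were lower, where 22.2% of all genes were higher and 18.1% lower. Hspa5 measured 1170.0, 1197 and 1144 CPM in vehicle tumors, against 819.5, 742 and 739 CPM in DMSO cells, a log2 fold change of 0.60 ± 0.10 (SE, edgeR adjusted p = 0.0037). Xbp1 measured 103, 111 and 117 CPM, against 75.5, 79.1 and 75.5 CPM (0.51 ± 0.09, edgeR adjusted p = 0.0052). Neither gene overlapped between the groups. Manf and Creld2, small secreted ER stress proteins, rose by 0.48 ± 0.10 and 0.39 ± 0.12 (edgeR adjusted p = 0.0091 and 0.0461). Sdf2l1, a partner of ER-resident J-proteins, measured 46.0, 25.7 and 30.5 CPM in vehicle tumors, against 16.3, 18.8 and 18.8 CPM in DMSO cells (0.92 ± 0.23, edgeR adjusted p = 0.0189). Pdia6, a disulfide isomerase, rose by 0.53 ± 0.13 (edgeR adjusted p = 0.0183). Hsp90b1 did not pass, at 0.21 ± 0.11 (edgeR adjusted p = 0.162). The calls of Hspa5, Xbp1 and Manf held when any of the 6 libraries was left out. Creld2 also lost its call with limma-voom (adjusted p = 0.0519) and without the low-count filter (edgeR adjusted p = 0.0676). It lost it without any single library except DMSO library 1, Pdia6 without vehicle tumor 1, vehicle tumor 3 or DMSO library 3, and Sdf2l1 without DMSO library 2. The values of these genes came from whole tumors, whose macrophage markers summed to 1401 to 2432 CPM, against 5.64 to 25.9 CPM in DMSO cells, with 9 of 10 of those markers under 1 CPM in all DMSO cells. The part of host cells in these differences was not tested.

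**Figure D4:**
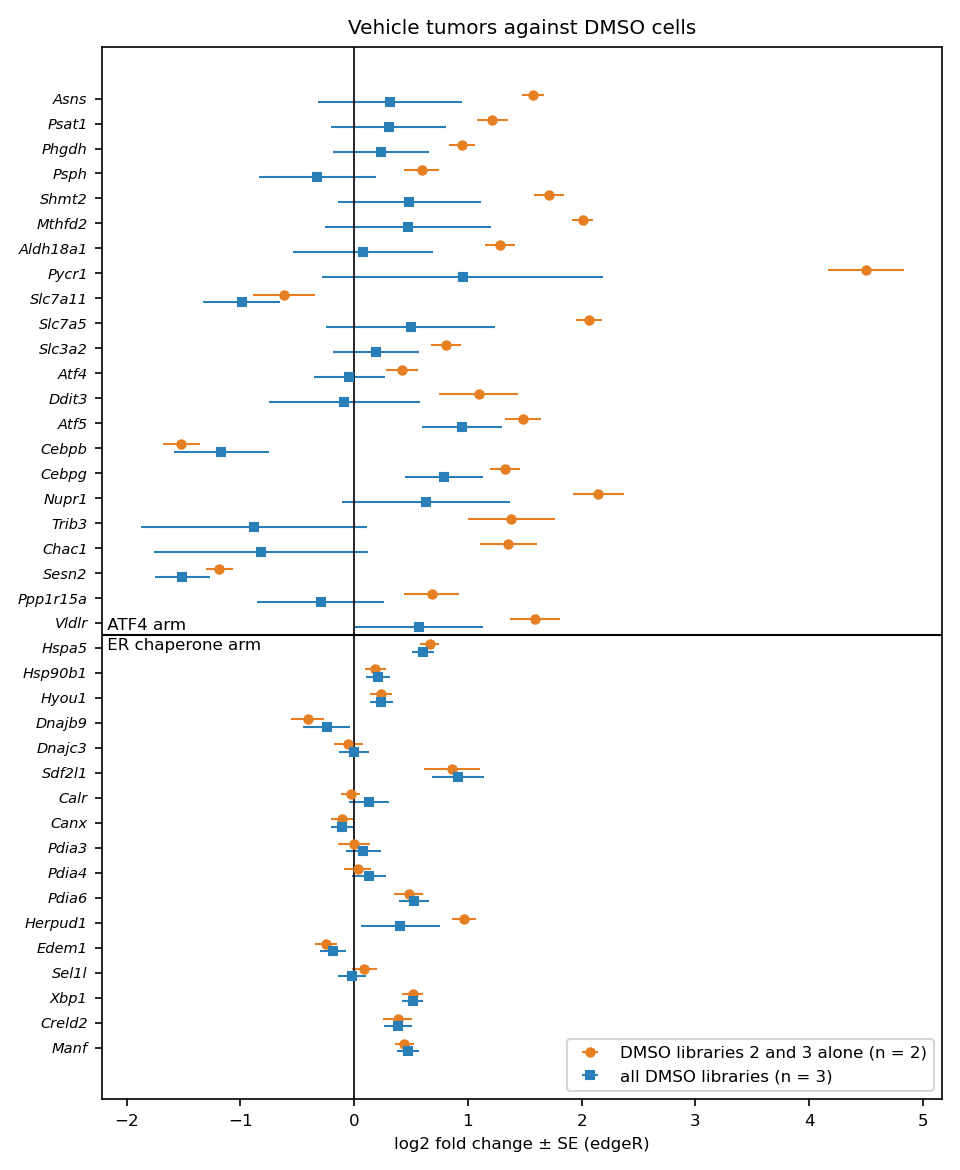
Points are log2 fold changes of vehicle tumors over DMSO cells and bars are 1 SE from edgeR, with DMSO libraries 2 and 3 alone in orange and all 3 DMSO libraries in blue. Atf3 is not drawn. Leaving out DMSO library 1 moves the ATF4 arm to the right and narrows its bars, while most of the ER chaperone arm stays where it was, Hspa5 at 0.66 and 0.60.

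Midostaurin tumors against midostaurin cells, each with its own 3 libraries, gave 5 calls where 21.7% of genes rose and 18.0% fell. These were Atf3 and Sesn2 in the ATF4 arm of 23 genes, and 3 of 17 genes in the ER chaperone arm. The midostaurin cell library numbered 1 also stood apart in the ATF4 arm, so errors there were wide, with 0.04 ± 0.66 for Asns and -1.17 ± 1.08 for Trib3. Few ATF4 arm calls therefore do not show that these tumors and cells were alike. Atf3, which again passed the filter only through the tumors, measured 11.5, 17.6 and 8.33 CPM in midostaurin tumors, against 0 counts in each library of midostaurin cells. Hspa5 and Xbp1 rose by log2 fold changes of 0.48 ± 0.09 and 0.40 ± 0.13 (SE, edgeR adjusted p = 0.0087 and 0.0476). Sesn2 fell by 1.57 on the log2 scale and Canx, a membrane-bound lectin chaperone, by 0.26 (edgeR adjusted p = 0.0059 and 0.0374). Sdf2l1, Pdia6, Manf and Creld2 were not called there. Sdf2l1 measured 14.3, 13.2 and 16.8 CPM in midostaurin tumors, against 15.7, 17.4 and 16.9 CPM in midostaurin cells, so the groups overlapped.

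On the further lists, in vehicle tumors against DMSO cells, 5 of 18 sensors and regulators fell and 0 rose, where 22.2% of all genes rose and 18.1% fell. Ern1, which encodes IRE1α, had a log2 fold change of -1.71 ± 0.21 (SE, edgeR adjusted p = 0.0015). Of 10 NRF2 targets 6 fell and 0 rose, among them Slc48a1, a haem transporter, and G6pdx, which supplies NADPH, at -1.36 ± 0.13 and -1.14 ± 0.13. Of 32 other unfolded protein response genes 7 rose and 3 fell, with P4hb, a disulfide isomerase, at 0.76 ± 0.13 (edgeR adjusted p = 0.0044). Of 10 cytosolic heat shock genes 4 rose. Of 17 tRNA synthetases 1 rose (Kars), of 23 other ATF4 targets 2 rose and 2 fell, and of 8 genes of the mitochondrial response 1 fell (Yme1l1). These counts used all 3 DMSO libraries. They include Derl3, Hspb1 and Tmem154 as higher, genes that did not pass the low-count filter in cells. Most tRNA synthetases and most other ATF4 targets tested in cells were higher in the libraries numbered 1, as in the ATF4 arm. The few calls on those lists therefore do not show that tumors and cells were alike, and counts without DMSO library 1 are not given here.

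In midostaurin tumors against vehicle tumors, no member of either arm passed the adjusted threshold with edgeR, which called 7 of 16094 genes (0.0435%). Without adjustment 13 of the 40 members had a p under 0.05, against 19.9% of all genes. DESeq2 called 8 members, Vldlr higher and Psat1, Phgdh, Psph, Shmt2, Sdf2l1, Pdia6 and Manf lower, where it called 6.30% of 13873 genes higher and 4.13% lower. Between the midostaurin and vehicle groups 1 member was higher without overlap (Vldlr) and 11 were lower, against 13.1% and 14.1% of all genes.

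The 8 synthesis genes all had a log2 fold change below 0 in midostaurin tumors, with a median of -0.56, against -0.01 for all genes. Of the 8, 5 were lower without overlap between the groups, where 14.1% of all genes were. Shmt2 measured 306, 224 and 358 CPM in midostaurin tumors, against 535, 464 and 419 CPM in vehicle tumors, a log2 fold change of -0.67 ± 0.18 (SE, edgeR adjusted p = 0.127, DESeq2 adjusted p = 0.0091). Phgdh measured 448, 332 and 466 CPM, against 691, 677 and 563 CPM (-0.62 ± 0.15, edgeR adjusted p = 0.115, DESeq2 adjusted p = 0.0044). Every midostaurin tumor lay below every vehicle tumor for both. Psat1 had -0.59 ± 0.14 (edgeR adjusted p = 0.108) and Pycr1 -0.81 ± 0.28 (edgeR adjusted p = 0.185). Asns overlapped between the groups, with 308, 249 and 417 CPM against 389, 419.6 and 368 CPM (-0.27 ± 0.18, edgeR adjusted p = 0.468). The median of the whole ATF4 arm was -0.16, or -0.45 without midostaurin tumor 4. The transcription factors and feedback genes were mixed in direction, with 5 of 7 and 2 of 5 above 0. Atf4 measured 547, 438 and 601 CPM in midostaurin tumors, against 534, 615 and 455 CPM in vehicle tumors (-0.01 ± 0.16), Ddit3 had 0.29 ± 0.32 and Trib3 -0.32 ± 0.48, and all 3 overlapped. Cebpb had 0.60 ± 0.25 (edgeR adjusted p = 0.248), with 385 CPM in midostaurin tumor 3 and 220.2 and 204 CPM in the other midostaurin tumors, against 159, 212 and 164 CPM in vehicle tumors. Vldlr (ENSMUSG00000024924, mm10 chr19:27216484-27254231, plus strand) had the largest change of the arm, at 408, 249.8 and 225 CPM in midostaurin tumors, against 108, 161 and 105 CPM in vehicle tumors (1.25 ± 0.27, edgeR adjusted p = 0.097, DESeq2 adjusted p = 0.0001). All midostaurin tumors were above all vehicle tumors for this gene.

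In the ER chaperone arm, 14 of 17 genes had a log2 fold change below 0 in midostaurin tumors, with a median of -0.14, or -0.07 without vehicle tumor 1. Of the 17, 5 were lower without overlap, where 14.1% of all genes were. Sdf2l1 measured 14.3, 13.2 and 16.8 CPM in midostaurin tumors, against 46.0, 25.7 and 30.5 CPM in vehicle tumors, a log2 fold change of -1.20 ± 0.23 (SE, edgeR adjusted p = 0.0848, DESeq2 adjusted p = 5.5e-05). Pdia6 measured 242, 284 and 279 CPM, against 388, 314 and 374 CPM (-0.41 ± 0.11, edgeR adjusted p = 0.123). Manf had -0.36 ± 0.09 (edgeR adjusted p = 0.11) and Creld2 -0.37 ± 0.12 (edgeR adjusted p = 0.169). Dnajc3, a cochaperone of BiP also known as an inhibitor of the eIF2α kinases, had -0.22 ± 0.11 with overlap. Hspa5 measured 1039, 1144 and 1091 CPM in midostaurin tumors, against 1170.0, 1197 and 1144 CPM in vehicle tumors (-0.09 ± 0.08), Hsp90b1 had -0.07 ± 0.09 and Xbp1 -0.01 ± 0.12. The per-library mean of log2 CPM over the arm was 7.38, 7.41 and 7.47 in midostaurin tumors, against 7.69, 7.53 and 7.64 in vehicle tumors, without overlap. The makeup of the tumors differed as well. Macrophage markers summed to 622, 1411 and 1174 CPM in midostaurin tumors, against 2063, 1401 and 2432 CPM in vehicle tumors, neutrophil markers to 44.9, 721 and 56.1 CPM, against 62.7, 39.9 and 20.8 CPM, and B and plasma cell markers to 2.65, 17.3 and 7.06 CPM, against 12.7, 3.22 and 2.31 CPM. None of the 10 macrophage markers was at 0 in a whole group. Skin and muscle markers summed to 1.603, 37.0 and 1.79 CPM in midostaurin tumors, against 26.8, 710.2 and 4.28 CPM in vehicle tumors, and fibroblast markers to 1628, 2096 and 2749 CPM, against 4568, 1979 and 1775 CPM. The sum of Malat1, Neat1 and 4 mitochondrial mRNAs was 12670.3, 10125 and 18595 CPM in midostaurin tumors, against 15629, 22363 and 19992 CPM in vehicle tumors. The part of these cells and of RNA quality in the differences was not tested.

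**Figure D5:**
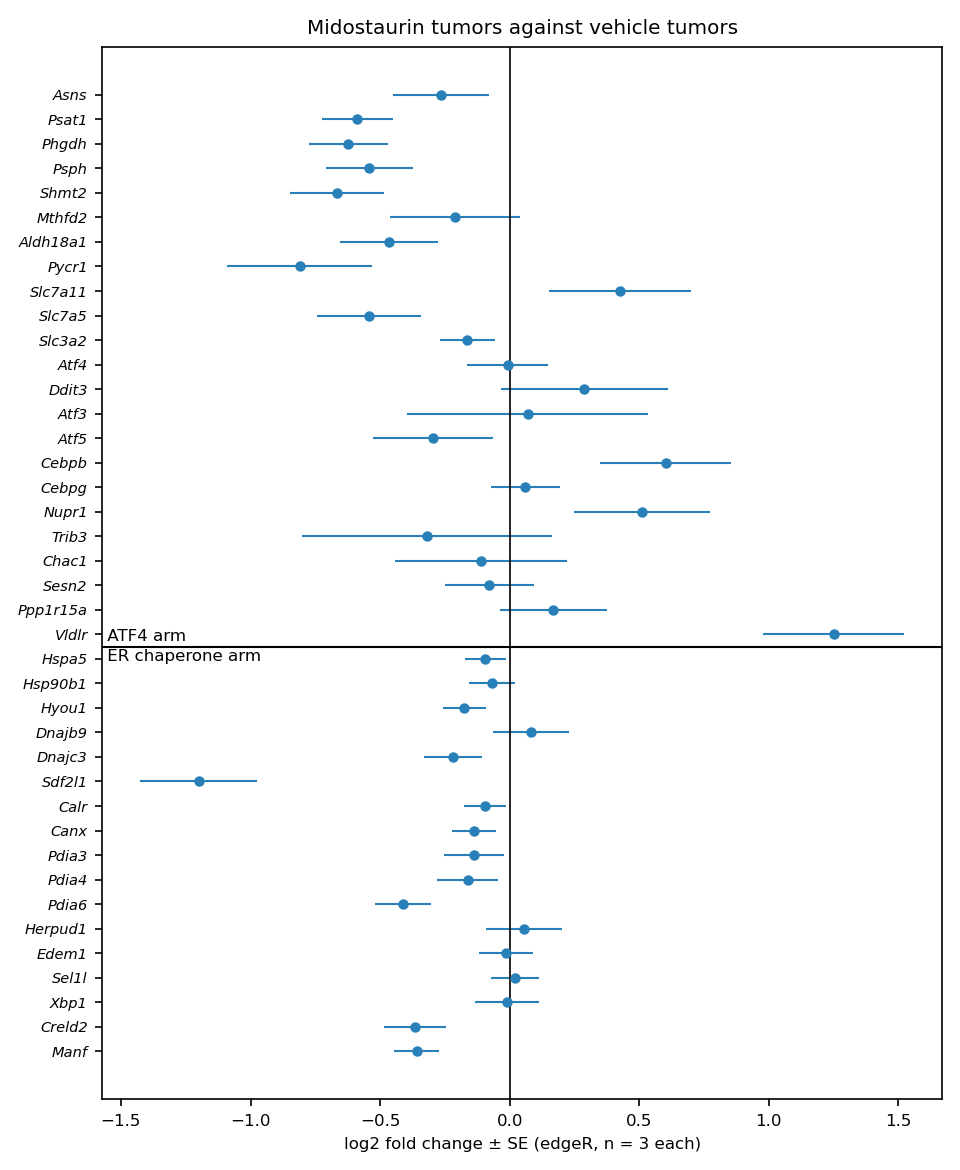
Points are log2 fold changes of midostaurin tumors over vehicle tumors and bars are 1 SE from edgeR, with 3 libraries in each group. The synthesis genes at the top lie left of 0, Vldlr lies at 1.25 and Sdf2l1 at -1.20, and no member passed the adjusted threshold.

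In cultured cells the values with midostaurin nearly equalled those with DMSO. Of the 39 members tested (Atf3 was filtered out), 0 were called, as were 0 of 14538 genes, of which 75 (0.516%) had an unadjusted p under 0.05, and DESeq2 called 2 genes. With the number as a block 8 genes and 0 members were called. No member had an unadjusted p under 0.05. The largest differences were those of Pycr1 (-0.15 ± 1.81), Slc7a11 (-0.14 ± 0.36) and Sdf2l1 (-0.11 ± 0.11), each with an edgeR adjusted p of 1.00. Apart from Xbp1, next in size were Nupr1 (0.08 ± 1.06) and Slc7a5 (0.05 ± 1.10) among ATF4 arm genes, and Herpud1 (0.07 ± 0.50), Pdia6 (0.06 ± 0.12) and Manf (0.05 ± 0.09) among ER chaperone genes. Asns had -0.01 ± 0.94, Atf4 -0.01 ± 0.43, Ddit3 0.03 ± 0.90, Trib3 -0.03 ± 1.44 and Hsp90b1 0.01 ± 0.07. Their standard errors carry the gap between the libraries numbered 1 and the others, and with the number as a block the 95% interval of the fold change lay within 1.2-fold for 35 of 39 members and within 1.5-fold for all 39. Pycr1, Slc7a11, Nupr1 and Chac1 were outside the narrower limit. Xbp1 was the single member without overlap, at 84.6, 79.4 and 81.8 CPM in midostaurin cells, against 75.5, 79.1 and 75.5 CPM in DMSO cells (0.10 ± 0.07), where 1.31% of all genes were higher without overlap. Hspa5 measured 837, 749.9 and 753 CPM in midostaurin cells, against 819.5, 742 and 739 CPM in DMSO cells (0.02 ± 0.08).

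The response in tumors minus that in cells was tested as an interaction, and 0 of 40 members were called by edgeR, which called 1 of 16965 genes (0.00589%). Without adjustment 4 members had a p under 0.05, against 6.08% of all genes, all 4 in the ER chaperone arm. Sdf2l1 had a difference of -1.10 ± 0.27 on the log2 scale (SE, edgeR adjusted p = 0.457), Manf -0.41 ± 0.12 (edgeR adjusted p = 0.615), Pdia6 -0.48 ± 0.17 (edgeR adjusted p = 0.718) and Creld2 -0.38 ± 0.15 (edgeR adjusted p = 0.775). In the ATF4 arm the gap between cell libraries made the errors wide, for example 1.24 ± 0.94 for Vldlr and -0.70 ± 1.03 for Shmt2. Pycr1 had -0.66 ± 1.95, Phgdh -0.62 ± 0.68 and Psat1 -0.60 ± 0.81. Asns had -0.27 ± 1.03, Atf4 -0.0045 ± 0.49, Ddit3 0.25 ± 1.03 and Trib3 -0.29 ± 1.64. Among ER chaperone genes Dnajc3 had -0.21 ± 0.16, Hspa5 -0.12 ± 0.11, Hsp90b1 -0.08 ± 0.11 and Xbp1 -0.11 ± 0.15. A missed threshold at such errors does not show that the responses were alike.

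Per kilobase of exon, the ER chaperone arm was led by the same 4 genes in tumors and cells. In vehicle tumors the mean levels were 350 CPM per kilobase for Calr, 314 for Hsp90b1, 277 for Hspa5 and 193 for Pdia3, and in DMSO cells 318, 270, 181 and 182 CPM per kilobase for the same genes. Hsp90b1 was above Calr in DMSO library 1 (257 and 239 CPM per kilobase). The order of Hspa5 and Pdia3 in DMSO cells was within their spread. In the ATF4 arm the highest levels in vehicle tumors were those of Atf5, Phgdh and Atf4 (261, 259 and 227 CPM per kilobase), which did not differ beyond their spread. In DMSO cells the order depended on the library. In DMSO library 1 the highest were Phgdh, Atf4 and Asns (389, 359 and 249 CPM per kilobase), and in the mean of libraries 2 and 3 Cebpb, Atf4 and Phgdh (340.2, 169 and 134 CPM per kilobase). Slc7a11, Pycr1 and Atf3 had the lowest levels of the arm in vehicle tumors.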

How the data were processed

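RNA from CT26 tumors and cultured CT26 cells was isolated with TRIzol and made into 12 directional poly(A)-selected libraries, 6 of each, per the labels' protocols. The authors deposited whole-number counts per gene, which the submitters' processing notes connect with FastQC 0.11.2, Bowtie2 2.3.4, RSEM and the mm10 genome. The RSEM version, gene annotation and strand setting are not given in the sources used here. RSEM divides reads among overlapping genes by estimate, so the counts may be rounded estimates. Exons of 5 members overlap another gene on the same strand and those of 12 a gene on the other strand. The labels number midostaurin tumors 1 to 3 and the columns 2 to 4. Columns 2 and 3 were matched by number, and column 4 was taken as the remaining midostaurin tumor, without a labelled number.

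Symbols were found for 55154 of 55335 identifiers. Counts were tested with edgeR 4.0.16 (R 4.3.3) using filterByExpr, TMM scaling and the quasi-likelihood F-test, with Benjamini-Hochberg adjustment over all genes tested and a threshold of 0.05. Each comparison was fitted on its own groups, and the difference of responses on all 4. Printed levels are CPM scaled over 12 libraries, with 0.5 added before log2. Alternatives used DESeq2 1.42.0, limma-voom (limma 3.58.1), another scaling, no low-count filter, each library left out and the replicate number as a block. Deviations of same-numbered cell libraries from their group means correlated across genes at 0.902, 0.719 and 0.702. Libraries 2 and 3 of unlike number gave 0.528 and 0.547. Same-numbered libraries were thus closest, but the gap of the libraries numbered 1 enters every deviation. These values alone do not settle whether the numbers pair the cells. In tumors the shared numbers gave 0.153 and -0.188, against -0.291 to 0.223 for unlike numbers. The labels do not say that numbers pair the tumors, and the main fits did not pair them. The fits were checked on simulated counts.

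The members and lists were chosen with earlier results of these data known. In each comparison and arm, called members and the 5 members with the largest changes at a mean of at least 5 CPM were named, with Atf4, Ddit3, Trib3, Asns, Hspa5, Xbp1 and Hsp90b1 always given. Other members named by value were chosen after their values were seen. Of each further list up to 2 genes with the smallest p were eligible.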

Additional observations from a re-analysis of the deposited data

How the results depend on the processing

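No member was called for midostaurin against vehicle tumors with edgeR under another scaling, without the low-count filter, with any library left out or with the replicate block over numbers 2 and 3. DESeq2 called 5 genes of the ATF4 arm and 3 of the ER chaperone arm there. Over all genes the count of 7 became 1447 with DESeq2, 16 with limma-voom, 0 without the filter, 0 with the block and 0 to 1 with a library left out. In cells 0 members were called in any fit, while all genes gave 2 with DESeq2, 2 with limma-voom and 8 with the replicate block. With that block DESeq2 gave 13 and limma-voom 12, alternatives chosen after seeing the data. The block changed no call of a member. For vehicle tumors against DMSO cells the ATF4 arm gave 2 calls, 6 with DESeq2, 21 without DMSO library 1, 21 without both libraries numbered 1 (chosen after seeing the data), and 2 to 21 over the libraries left out. The 2 include Atf3, which passed the filter only through the tumors. Without DMSO library 1 the log2 fold changes of Atf4, Ddit3 and Trib3 turned to 0.42, 1.09 and 1.38, and without both libraries numbered 1 those of Ddit3 and Trib3 to 1.34 and 1.65. Over the libraries left out the ranges were -0.24 to 0.42 for Atf4, -0.47 to 1.09 for Ddit3 and -1.36 to 1.38 for Trib3. The ER chaperone arm gave 6 calls, 4 to 7 with a library left out and 3 between the midostaurin groups, where Sdf2l1 turned to -0.19. For the difference of responses the count over all genes was 1, became 99 with DESeq2 and 16 with the replicate block in cells, and ranged from 1 to 6 with a library left out, 6 being without midostaurin tumor 4. No member was called in these. In the split by number the ATF4 arm gave 21 higher and 1 lower under all alternatives run except the 2-fold minimum, which gave 19 higher and 1 lower. The ER chaperone arm gave 3 higher and 10 lower with no minimum fold, 2 lower with another scaling, 1 lower in DMSO libraries alone and 0 to 1 lower with replicate 2 or 3 left out. Over all genes the split gave 591 higher and 559 lower at 2-fold, and 4815 higher and 4650 lower with no minimum. Of 879 recomputed values of single genes 842 kept their side of the threshold, of which 76 changed sign with no call in either fit, 14 lost a call, 17 gained one and 6 turned. The causes were not tested beyond the libraries named. With 3 libraries in a group, and a gap between cell libraries in the ATF4 arm, changes smaller than the errors printed were not detectable.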
